A study of Rattus norvegicus with 8 samples.

Results

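The rat miRNAs described here are those named miR-3541 or with a higher number in the miRNA registry. They were chosen by name, taking either arm, and make up 89 of the 719 rat miRNAs on the array. miR-3584-5p, whose number also qualifies, was left out, for which the rule gives no reason, and its values are given near the end. The serum came from male specific pathogen free Wistar rats. Samples were 4 with reflux esophagitis on day 21 after induction (replicates 5, 8, 9 and 10) and 4 from sham-operated controls (replicates 1 to 4), each measured on its own array. The labels state this day for reflux esophagitis alone, and for the controls it comes from the study's methods. Exosome-rich material was precipitated from serum with ExoQuick, a polymer reagent that also brings down some RNA from outside exosomes, and its RNA was labelled with Cy3. Whether each serum sample stands for 1 rat is not said in any source. The tests therefore weigh differences against the spread of these samples, which may be in part technical.

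A miRNA is a short RNA cut from a hairpin precursor. One or both arms of the hairpin can be loaded into the RNA-induced silencing complex, where bases 2 to 8, called the seed, pair with target messenger RNAs. Registry numbers are given in order of discovery. High numbers therefore mark miRNAs found late, mostly by deep sequencing, and many of these are known from one species or close relatives only. A group of them lies on the opposite strand of long-known miRNA genes, where the transcript of the other strand can fold into a hairpin as well. For most of them no target or function is established. The reference sequences used here cover the rat only, so whether a given miRNA exists in other species was not tested.

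Mature sequences were found for 79 of the 89 miRNAs in RefSeq (assembly GRCr8). The 8 that were detected on every array are shown first because their fold changes rest on measured signal on every array. The seed is in capitals.
miR-3541: uCCCUCCCccucacugca
miR-3544: aACUCCUGcaugacgccguuccc
miR-3564: uGGGAAAUgcaaagagggaag
miR-3573-3p: uUCCUAACucugcccccucccau
miR-3588: uCACAAGUuagggucucaggga
miR-3593-3p: cUUCAACCuuaagggggccuca
miR-6216: gAUACACAgaggcaggaggagaa
miR-6328: aGGCCUGCucugagcccccgc
The next 7 were detected on every control array and on 2 or 3 of the 4 arrays of reflux esophagitis.
miR-3546: aUAACCCGggccaaaagcucac
miR-3549: aUCUUGCCcgcaaagaccc
miR-3557-3p: aCACAGGAccuggagucaggag
miR-3559-5p: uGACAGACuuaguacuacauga
miR-3562: uUGGGGCAguggcuggauggga
miR-6317: gUGAACCUgagagaaaggcuc
miR-6322: uGUCUGUAccacauggcacggu
No 2 of these 15 share a seed, and none of the 20 detected miRNAs with a sequence shares its seed with any other rat miRNA in the reference. Among the undetected ones, miR-3573-5p has the seed of miR-423-5p, and miR-3596d has that of miR-98-3p and several let-7 3p arms.

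The array registers a miRNA through short DNA probes that pair with its 3′ end. Of the 183 probes for the 89 miRNAs, 163 could be compared with a mature sequence, and all 163 were complementary to its 3′ end. Probes had 11 to 21 bases, and 86 of the 89 miRNAs had 2 of them. In the 22 detected miRNAs the 2 differed by 1 base at one end. Each miRNA had 20 spots in all, and in the 22 detected miRNAs each probe had 10. The extraction software decides for each probe whether it is detected and gives a total signal per miRNA in linear intensity units, with background subtracted and no scaling between arrays. Signals of different miRNAs cannot be ranked as amounts, because probes differ in how brightly they bind.

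Most high-numbered miRNAs were not detected in serum exosomal RNA. Of the 89, 22 (24.7%) were detected on at least 1 array, 8 (8.99%) on all 8 arrays and 67 on none. The corresponding figures for the other 630 rat miRNAs were 257 (40.8%) and 136 (21.6%). The share was lower for newer names. let-7 and the miRNAs up to miR-499 had 214 of 489 detected (43.8%) and those between miR-500 and miR-3540 had 41 of 139 (29.5%). The second range was counted without miR-3473, which was detected on all 8 arrays, and miR-3584-5p is in neither range. These shares are descriptions of 1 set of arrays, with no test. Under a stricter call, which asked that more than 10 of the spots of a miRNA lie well above background, 13 of the 89 (14.6%) and 27.1% of the others were detected on at least 1 array. With 10 spots per probe, a miRNA that registers on 1 probe alone cannot meet this call.

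Per array, reflux esophagitis replicates 5, 8, 9 and 10 had 16, 14, 8 and 15 of the 89 miRNAs detected, and control replicates 1, 2, 3 and 4 had 18, 21, 16 and 16. The means were 13.2 ± 3.6 in reflux esophagitis and 17.8 ± 2.4 in controls (SD, n = 4 each). The groups met at 16, and replicate 9 lay far below the other arrays. Without replicate 9 the mean in reflux esophagitis was 15 ± 1.0 (SD, n = 3). Replicate 9 was also lowest for the other rat miRNAs, with 21.6% of them detected, against 28.9% to 36.3% on the other arrays of reflux esophagitis and 31.1% to 34.0% in controls.

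**Figure D1:**
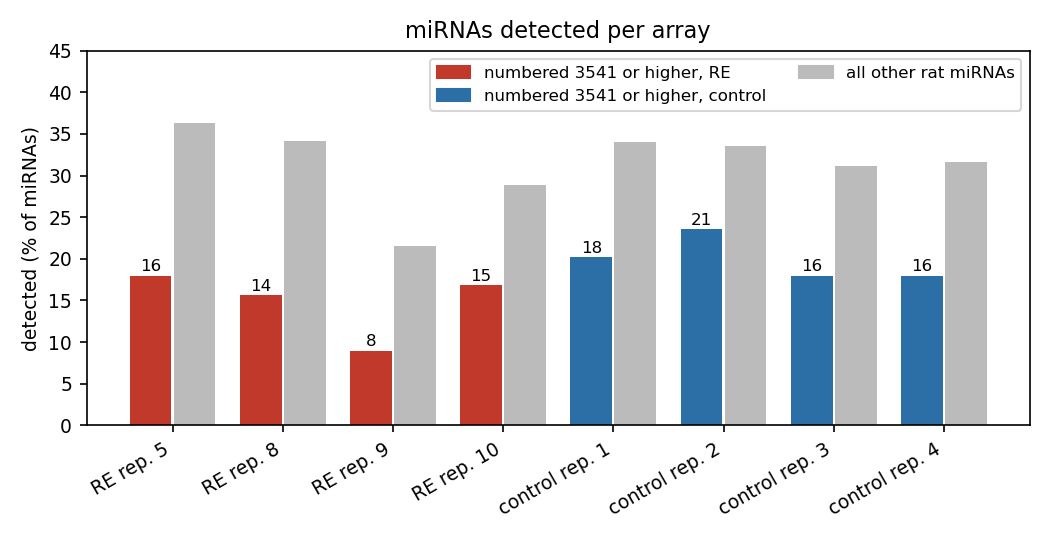
Percent of rat miRNAs detected on each array, for the 89 high-numbered miRNAs (red, reflux esophagitis; blue, control; the number detected is printed above the bar) and for the other 630 (grey). The high-numbered share was below the share of the others on all 8 arrays, and reflux esophagitis replicate 9 had the lowest of both.

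Over all 719 rat miRNAs, 144 to 245 were detected per array in reflux esophagitis and 212 to 232 in controls, and no spot was saturated. Each array was scaled by its 75th percentile, taken over the 144 miRNAs that all 8 arrays detected. It was 1052, 1080, 239 and 442 intensity units in reflux esophagitis replicates 5, 8, 9 and 10, against 584, 494, 558 and 915 in control replicates 1 to 4. All 5 leukocyte miRNAs, 5 of 6 red blood cell miRNAs and 3 of 5 platelet miRNAs that were looked up as a check of the serum label were detected on all arrays, as was 1 of 3 liver miRNAs, while neither brain miRNA was detected on any. Of the 4 muscle miRNAs, 0 to 4 were detected per array in reflux esophagitis and 4 on every control array. The platelet list had 3 to 5 against 5, the red blood cell list 5 to 6 against 6 and the liver list 1 to 2 against 2. A lower end in reflux esophagitis was thus also seen in these 3 lists, but of the 4 only the muscle list fell to 0. The leukocyte list had 5 on every array.

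Summed over the 89 miRNAs, the total signal was 0.641%, 0.508%, 1.11% and 1.29% of the signal of all rat miRNAs in reflux esophagitis replicates 5, 8, 9 and 10, against 0.939%, 1.14%, 1.14% and 0.475% in control replicates 1 to 4. The means were 0.887 ± 0.372% in reflux esophagitis and 0.924 ± 0.314% in controls (SD, n = 4 each), a difference well within the spread. In both groups the sum rested on miR-6216 and miR-3593-3p, which together gave 67.7% to 83.6% of it in reflux esophagitis and 67.9% to 77.0% in controls.

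In the comparison of reflux esophagitis with controls, none of the high-numbered miRNAs passed the test. A miRNA was tested where every array of one group or the other detected it, which held for 192 rat miRNAs and for 15 of the 89. limma with Benjamini-Hochberg adjustment over all 192 called 0 of the 15, against 2 of 192 (1.04%) in all, both lower in reflux esophagitis. The adjusted p of the 15 ran between 0.870 and 0.971, and 0 of them had an unadjusted p under 0.05 (5 of all 192, 2.6%). The methods' t-test, their analysis of variance and the other settings tried, 27 in all, also called 0 of them. In all 15 the values of the groups overlapped. Among the 192 tested, 3 (1.56%) had groups that did not overlap, all lower in reflux esophagitis.

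The miRNAs detected on all arrays are described one at a time, starting with those that lie within a protein-coding gene on the same strand. miR-3541 lies on chromosome 2 (GRCr8 chr2:176878671-176878688, plus strand) inside Clk2, which encodes a kinase of splicing factors. Whether exon or intron cannot be read from the gene spans used. Its total signal was 22.0, 20.2, 11.8 and 44.7 in reflux esophagitis replicates 5, 8, 9 and 10, against 27.2, 49.6, 29.1 and 28.6 in control replicates 1 to 4. Apart from replicate 10, all arrays of reflux esophagitis lay under the lowest control. After scaling the log2 fold change was -0.49 (SE 0.60), and the 95% interval of the fold reached between 0.275 and 1.83.

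miR-3573-3p lies in the span of Efnb1, the gene of the Eph receptor ligand ephrin-B1, on the X chromosome (chrX:68299322-68299344, plus strand). It gave 53.7, 41.6, 42.0 and 89.3 in reflux esophagitis replicates 5, 8, 9 and 10, against 55.9, 99.5, 63.6 and 56.1 in controls 1 to 4. Here too 3 arrays of reflux esophagitis lay under the controls and replicate 10 lay among them. The log2 fold change was -0.24 (SE 0.63), a fold between 0.315 and 2.28. The arm opposite in the hairpin, miR-3573-5p, was detected on no array.

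miR-3564 and miR-6328 lie within protein-coding genes as well, but on the strand opposite to the gene. The first lies in the span of Klhdc4 on chromosome 19 (chr19:66782276-66782296) and the second in that of Ppp1r18, which encodes an actin-binding partner of protein phosphatase 1, on chromosome 20 (chr20:2890159-2890179). miR-3564 gave 44.1, 38.6, 9.23 and 47.4 in reflux esophagitis replicates 5, 8, 9 and 10, against 31.7, 48.0, 37.0 and 33.5 in controls 1 to 4. It was level with the controls on 3 arrays and low on replicate 9 alone, where the total held only 1 of its probes. Scaling put it elsewhere, with replicate 10 at a log2 value of -3.22 and the other 3 arrays of reflux esophagitis between -4.81 and -4.58, and the log2 fold change was -0.26 (SE 0.46), a fold between 0.405 and 1.71.

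miR-6328 gave 46.4, 40.2, 36.1 and 71.3 in reflux esophagitis replicates 5, 8, 9 and 10, against 44.7, 71.4, 50.5 and 45.2 in controls 1 to 4. One array in each group stood above the rest, replicate 10 and control 2. The log2 fold change was -0.08 (SE 0.59), a fold between 0.377 and 2.39. This miRNA is rich in G and C (76.2% of its bases).

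No annotated gene other than the miRNA's own, or a miRNA on the other strand, spans miR-3544, miR-3593-3p and miR-6216, and miR-3588 lies opposite to a long non-coding RNA. miR-3593-3p (chr6:78987770-78987791) gave 334, 263, 354 and 591 in reflux esophagitis replicates 5, 8, 9 and 10, against 493, 536, 419 and 451 in controls 1 to 4. The 4 controls lay close together and within the wider range of reflux esophagitis. The log2 fold change was -0.29 (SE 0.64), a fold between 0.298 and 2.25, and miR-3593-5p was detected on no array.

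miR-6216 (chr3:65165595-65165617) gave 824, 794, 365 and 730 in reflux esophagitis replicates 5, 8, 9 and 10, against 791, 818, 1088 and 444 in controls 1 to 4. Each group had 1 dim array, replicate 9 and control 4. The log2 fold change was -0.14 (SE 0.51), a fold between 0.407 and 2.03. Its 14-base and 15-base probes differ by a single end base.
Probe of 14 bases: ttctcctcctgcct
Probe of 15 bases: ttctcctcctgcctc
The shorter gave 67.5 to 175 in reflux esophagitis and 102 to 210 in controls, and the longer 297 to 649 in reflux esophagitis and 342 to 879 in controls, so the total of this miRNA rested mostly on the longer probe.

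miR-3588 (chr11:29732588-29732609) varied most. It gave 44.4, 19.3, 18.0 and 118 in reflux esophagitis replicates 5, 8, 9 and 10, against 142, 82.4, 69.3 and 21.1 in controls 1 to 4. Both groups held dim and bright arrays. The log2 fold change of -0.73 (SE 0.95) was the largest of the 8 in size and also the least certain, with a fold between 0.136 and 2.67.

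miR-3544 varied least. It gave 26.9, 24.7, 23.7 and 27.6 in reflux esophagitis replicates 5, 8, 9 and 10, against 23.7, 39.8, 24.7 and 25.8 in controls 1 to 4. All arrays but control 2 lay within a few units of each other, replicate 9 included. Its highest signal was 1.68 times its lowest, and of the 144 miRNAs detected on all arrays only 2 had a smaller ratio. The log2 fold change was -0.04 (SE 0.55), a fold between 0.408 and 2.31.

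Exact two-sided permutation tests over the 8 arrays gave p between 0.514 and 0.943 for these 8 miRNAs, where 0.0286 is the smallest p that 4 against 4 allows. Their 95% intervals all held both a fold of 0.5 and a fold of 1.5, so the data do not exclude changes of that size in either direction.

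**Figure D2:**
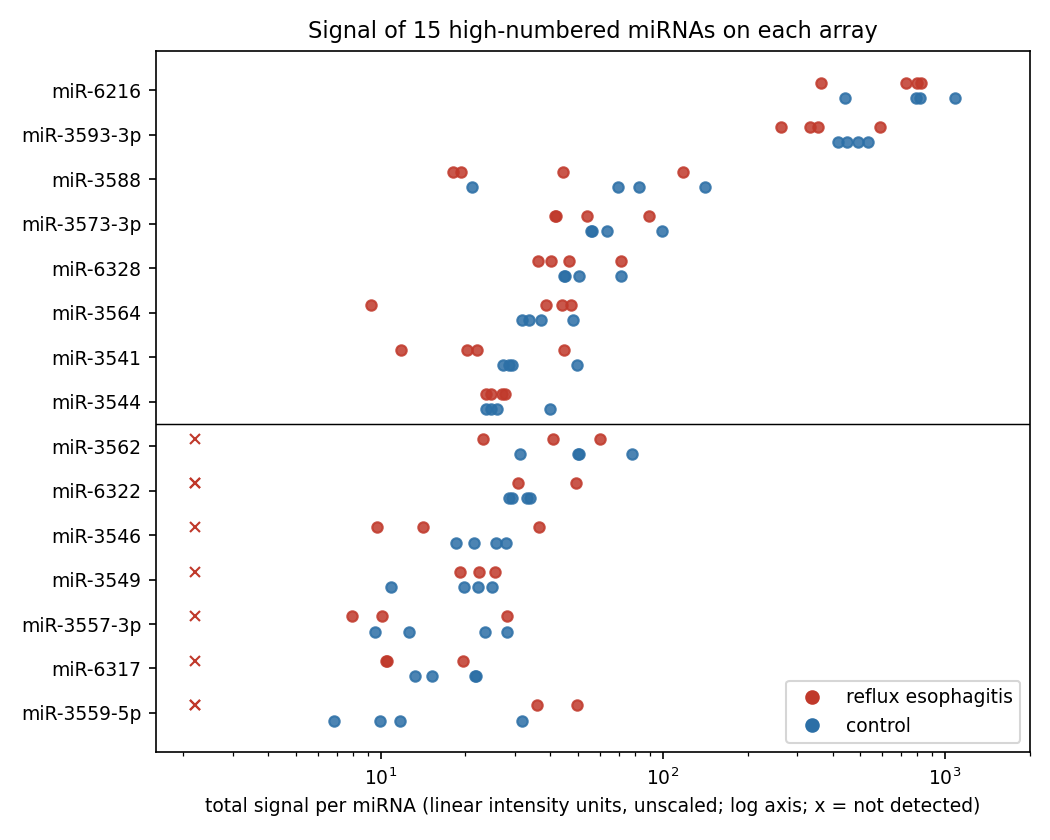
Unscaled total signal of the 15 tested high-numbered miRNAs (log axis), with 1 point per array, reflux esophagitis in red above control in blue. Crosses mark arrays on which the miRNA was not detected. The groups overlapped in the 8 miRNAs detected on all arrays (above the line), and all crosses among the 7 below the line belong to reflux esophagitis, since that is how those 7 passed the filter.

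The unscaled signal of most of the 8 miRNAs moved less between arrays than the arrays' own scaling factors. The ratio of highest to lowest unscaled signal had a median of 2.69 over the 8, against 5.80 over all 144 miRNAs detected on all arrays, and the 75th percentile itself differed 4.52-fold between arrays. miR-3564 (5.20) and miR-3588 (7.86) were above that last figure. The lowest total of miR-3564, on replicate 9, left out 1 of its probes, which read 5.32 and 9.23 there. Its ratio is therefore partly set by the missing probe. After scaling, replicates 9 and 10 lay above replicates 5 and 8 in 7 of the 8 (miR-3564 was the exception), and control 4 was the lowest control in all 8. Replicates 5 and 8 and control 4 had the 3 highest percentiles. Replicate 10 was above the control mean in 8 of 8, and replicates 5 and 8 were below it in 8 of 8. What sets this order was not tested.

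**Figure D3:**
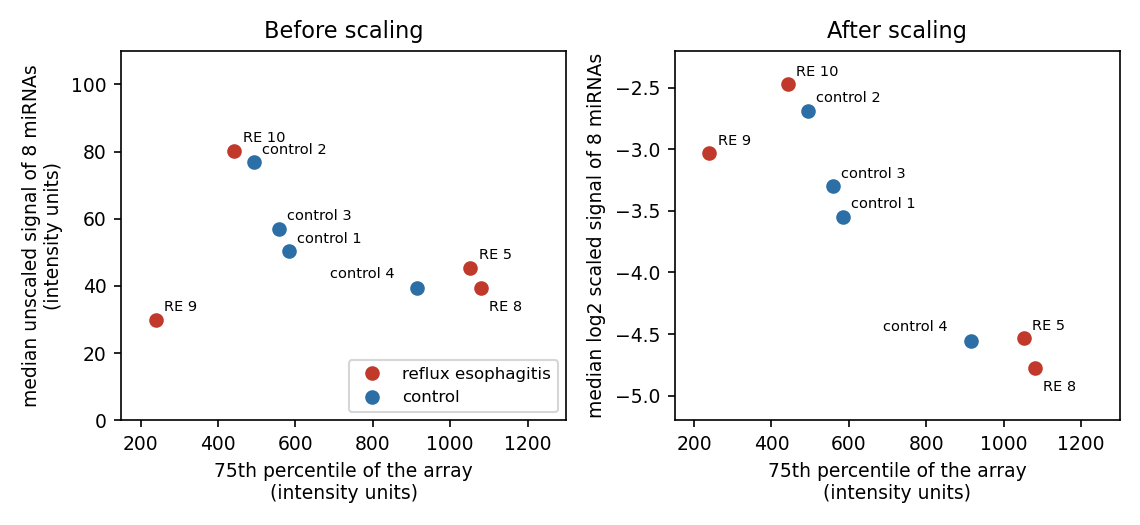
Median over the 8 high-numbered miRNAs detected on all arrays, before scaling (left, intensity units) and after scaling (right, log2), against the 75th percentile of the same array, with reflux esophagitis in red and control in blue. After scaling, the 3 arrays with the highest percentiles (replicates 5 and 8 of reflux esophagitis and control 4) had the lowest medians, between -4.78 and -4.53.

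The sign of the fold changes depended on the scaling. With the scaling used, 8 of the 8 and 108 of the 144 miRNAs detected on all arrays had a log2 fold change below 0, with medians of -0.25 and -0.19. With the median of the same 144 as scaling factor, 5 of the 8 and 67 of the 144 did, with medians of -0.04 and 0.02. With the 75th percentile over all rat miRNAs, which is 0.1, the value given to undetected miRNAs, on replicate 9, 0 of the 8 and 0 of the 144 lay below 0.

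**Figure D4:**
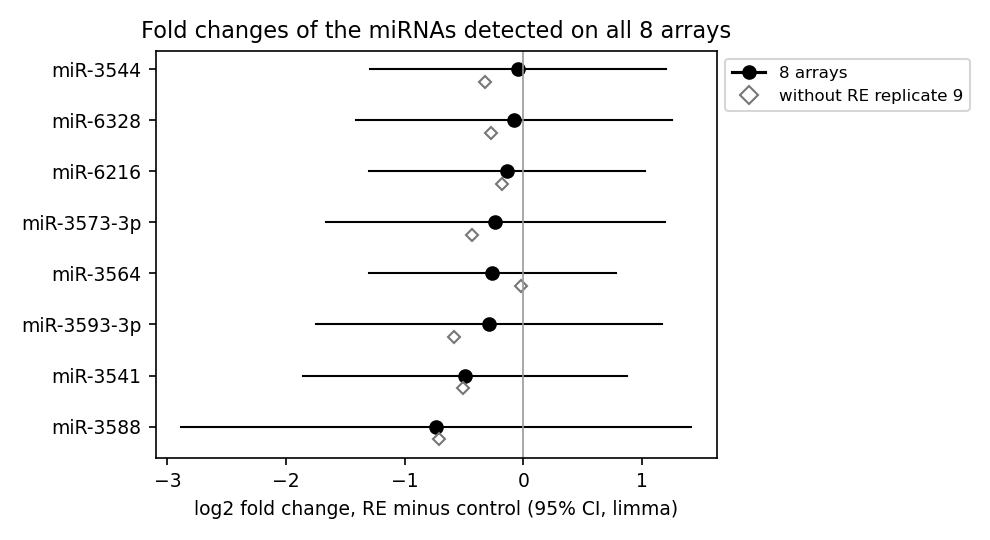
Log2 fold change (reflux esophagitis minus control) of the 8 high-numbered miRNAs detected on all arrays, with 95% intervals from limma (black). Open diamonds give the value without reflux esophagitis replicate 9. Every interval includes 0, and the values lie between -0.73 and -0.04.

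The other 7 tested miRNAs entered the test only through the controls, so their lower counts in reflux esophagitis follow from the filter. Over all 192 tested miRNAs, 48 (25.0%) passed in this way. On arrays that did not detect a miRNA its value is a floor, so no fold change is set beside their signals. Those that hold the floor are listed with the settings in the closing section.

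miR-3546, miR-3549, miR-3557-3p, miR-3562 and miR-6317 were missing on replicate 9 only. miR-3562, in the span and on the strand of the centrosomal protein gene Cep131 (chr10:105848002-105848023), gave 41.0, 23.1 and 60.0 in reflux esophagitis replicates 5, 8 and 10, against 77.8, 50.5, 50.1 and 31.2 in controls 1 to 4. Its 2 probes read 6.95 and 7.86 on replicate 9. They were dim there, and the software did not call them.

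miR-3557-3p, on the strand opposite to Ppargc1b, the gene of a coactivator of mitochondrial genes (chr18:57128962-57128983), gave 10.09, 7.95 and 28.0 in reflux esophagitis replicates 5, 8 and 10, against 23.4, 28.1, 12.6 and 9.58 in controls 1 to 4. miR-6317, in the span of the proline synthesis gene Aldh18a1 (chr1:249348422-249348442), gave 10.5, 10.5 and 19.7 in replicates 5, 8 and 10, against 15.3, 21.6, 21.8 and 13.3 in controls. miR-3549 (chr10:65170337-65170355) gave 22.4, 19.1 and 25.4 in replicates 5, 8 and 10, against 19.7, 24.8, 22.2 and 10.9 in controls. In all of these, replicate 10 was the brightest array of reflux esophagitis and lay within or above the controls. These 4 and miR-3546 were detected on the 7 remaining arrays, and replicate 9 alone put them among the 7.

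miR-3546 lies on chromosome 15 (chr15:32395601-32395622, plus strand) within Myh6, the gene of the cardiac alpha myosin heavy chain, on the strand opposite to Myh6 and to the heart miRNA miR-208a. It gave 14.1, 9.73 and 36.4 in reflux esophagitis replicates 5, 8 and 10, against 18.6, 25.8, 21.4 and 27.8 in controls 1 to 4. Only replicate 10 lay above the controls. All of this signal came from 1 probe.
Probe of 14 bases: gtgagcttttggcc
Probe of 15 bases: gtgagcttttggccc
The shorter read -1.78 to 0.34 in reflux esophagitis and -1.73 to 1.43 in controls, and the longer 8.32 to 36.4 in reflux esophagitis and 18.6 to 27.8 in controls. The 2 probes differ only in the last base and should report the same molecule. Their disagreement held on all 8 arrays, and which of them reports miR-3546 was not tested.

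miR-3559-5p and miR-6322 were each missing on 2 arrays of reflux esophagitis. miR-3559-5p, in the span of the palmitoyltransferase gene Zdhhc15 (chrX:73660193-73660214), gave 36.0 and 49.8 on replicates 5 and 8 and was not detected on replicates 9 and 10, against 9.96, 6.84, 11.7 and 31.8 in controls 1 to 4. Both bright arrays of reflux esophagitis were above all controls. The other 14 tested miRNAs were all detected on replicate 10. The arrays on which it was bright, replicates 5 and 8 and control 4, were again the 3 with the highest 75th percentiles, here at high unscaled signal.

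miR-6322 (chr12:29416334-29416355) gave 30.7 and 49.4 on replicates 5 and 10 and was not detected on replicates 8 and 9, against 33.1, 33.8, 29.1 and 28.6 in controls. The controls and replicate 5 lay close together and replicate 10 above them. On replicates 8 and 9 its 2 probes read between 4.09 and 5.23.

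The total signal did not always hold both probes. Recomputed from the probe signals (tolerance 0.5%), 5 of the 15 tested miRNAs had both probes in the total on all 8 arrays, namely miR-3544, miR-3573-3p, miR-3593-3p, miR-6216 and miR-6328, and 8 rested on 1 probe on some arrays. For miR-3541 and miR-3564 that array was replicate 9, for miR-3588 replicates 8 and 9 and control 4, and for miR-3549 control 4. For miR-3559-5p it was controls 1, 2 and 3, and for miR-3557-3p replicates 5 and 8 and controls 3 and 4. Part of a low total on those arrays is thus a probe left out of the sum. On replicate 9 the probes of miR-3541 read 11.8 and 6.25, and only the first was counted. With the mean of all spots in place of the total, 8 of the 8 still had a log2 fold change below 0, with a median of -0.20.

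The remaining 7 detected miRNAs were seen on few arrays. miR-6318 was detected on 1 array of reflux esophagitis (13.2, replicate 10) and 3 controls (8.99, 13.4 and 11.6). miR-6333 was detected on 1 array of reflux esophagitis (17.3, replicate 5) and 2 controls (6.79 and 7.83). miR-6215 was detected on 0 arrays of reflux esophagitis and on controls 1 and 2 (8.73 and 7.18). The lowest signal that the software called was between 3.29 and 4.60 on the different arrays.

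miR-3547 (6.995), miR-3582 (9.61) and miR-3584-3p (15.5) were detected on control 2 alone and miR-3558-3p (19.0) on control 1 alone. Control 2 had the most high-numbered miRNAs of any array. A detection on 1 array of 8 has no replicate, and all 7 lost it under the stricter call on spots. So did miR-3546 and miR-6317, detected on 7 arrays each, whose total came from 1 probe on every one of those arrays. With 10 spots per probe, 1 probe cannot meet a call that asks for more than 10. Their longer probes had most spots well above background on 6 (miR-3546) and 5 (miR-6317) arrays.

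Where both arms of a hairpin were on the array, no pair had both arms detected. There were 13 such pairs among the 89. In 5 of them 1 arm was detected (the 3p arm of miR-3557, miR-3558, miR-3573 and miR-3593 and the 5p arm of miR-3559), and in 8 neither was. The hairpin of miR-3584 is split by the rule. Its 5p arm, left out of the group, gave 44850, 44379, 15794 and 31642 in reflux esophagitis replicates 5, 8, 9 and 10, against 42320, 35728, 37710 and 50949 in controls 1 to 4, while the 3p arm was detected on 1 array. The number of the rule falls between miR-3541, described above, and miR-3473, the next lower-numbered miRNA on the array, which gave 49428, 51735, 25011 and 45402 in reflux esophagitis replicates 5, 8, 9 and 10, against 51662, 48606, 38229 and 56858 in controls 1 to 4.

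A feature that the rule did not use is the position of 25 of the 79 miRNAs opposite to another miRNA gene (GRCr8). These 25 are those for which the reference holds an overlapping miRNA hairpin on the other strand. Complementarity to other rat miRNAs was not searched. The remaining 54, miR-3588 among them, may thus hold further miRNAs of this kind. Their sequences were complementary to a mature miRNA of the other strand over an unbroken run of 16 to 22 bases. An undetected and a detected example show this, with the miRNA of the opposite strand under each.
miR-3596a: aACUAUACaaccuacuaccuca
let-7a-5p: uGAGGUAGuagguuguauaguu
miR-3546: aUAACCCGggccaaaagcucac
miR-208a-5p: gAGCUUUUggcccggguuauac
miR-3596a is the exact reverse complement of let-7a-5p over all 22 bases, and miR-3546 pairs with miR-208a-5p over 20.

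Of these 25 miRNAs, 3 (12.0%) were detected on at least 1 array, against 17 (31.5%) of the 54 without an annotated overlap. The 3 were miR-3544, opposite to miR-337 of the imprinted Dlk1-Dio3 region, miR-3546, opposite to miR-208a, and miR-3549, opposite to miR-193a, which was not found on the array under that name. No other name was searched for miR-193a, so its detection is not given. Of the 24 pairs with both names on the array, the complementary miRNA was detected on all 8 arrays in 10. Of those 10, taken from annotated overlaps alone, only miR-3546 was itself detected, through 1 probe alone. The other 9 included miR-3556a, miR-3556b and miR-3587, opposite to miR-29a-3p, miR-29c-3p and miR-29b-3p, and miR-3596a, miR-3596b and miR-3596d, opposite to let-7a-5p, let-7d-5p and let-7f-5p. miR-3546 had 0 arrays under the stricter call on spots, which 1 probe of 10 spots cannot meet. miR-3591, opposite to the liver miRNA miR-122-5p (7 arrays), and miR-3571, opposite to the muscle miRNA miR-1-3p (6 arrays), were detected on 0 arrays. Several of the older miRNAs have further gene copies, so their signal need not come from the gene opposite. miR-3544 showed the reverse pattern, since it was detected on all 8 arrays and both arms of miR-337 on 0.

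**Figure D5:**
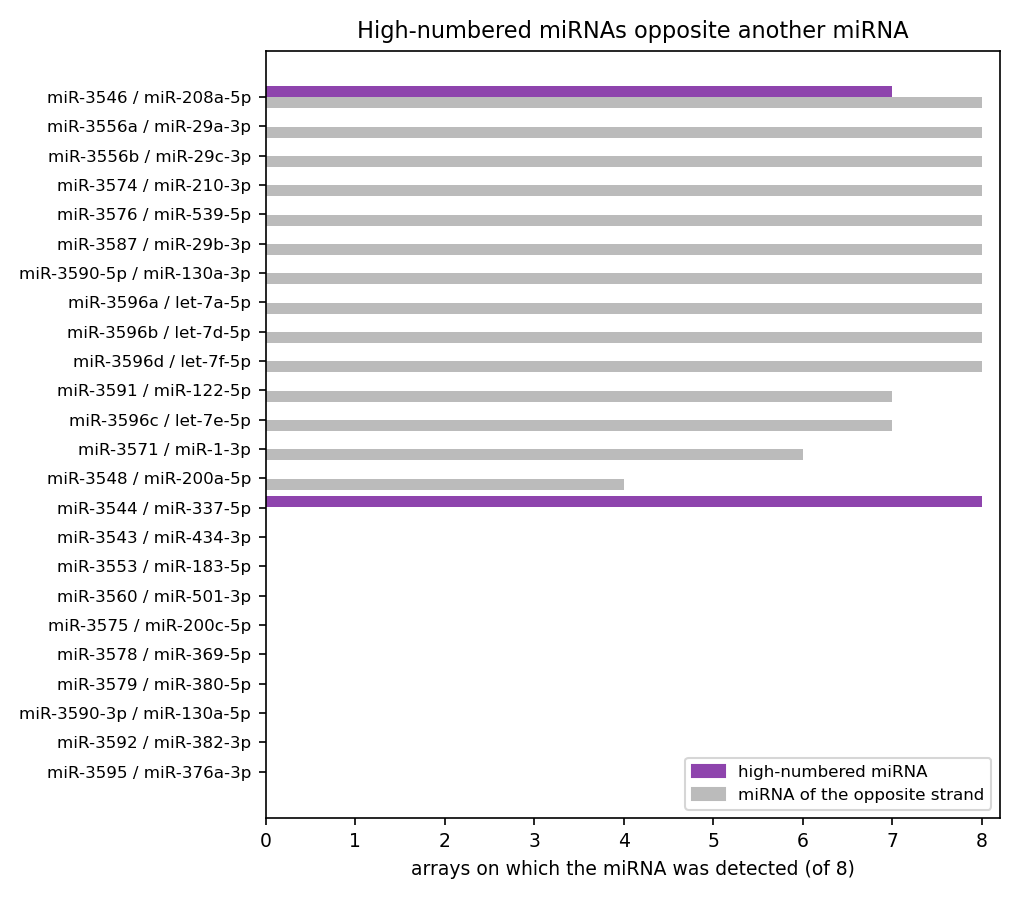
Number of arrays (of 8) that detected a high-numbered miRNA (purple) and the complementary miRNA arm of the opposite strand (grey). Shown are the 24 annotated pairs in which both names were found on the array, so miR-3549 is not plotted. Only miR-3546 and miR-3544 have a purple bar, and 10 pairs have a grey bar of 8.

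The detected high-numbered miRNAs were richer in G and C than the undetected ones. Median GC content was 55.8% in the 20 detected and 47.6% in the 59 undetected miRNAs with a sequence, whereas among the other rat miRNAs it was 47.7% in the 232 detected and 47.4% in the 330 undetected. A run CCCC, noticed after the values were seen and searched in the miRNA's own strand only, occurred in 4 of the 20 and in 1 of the 59 (1.69%). Of all 641 rat miRNAs of the array with a sequence, 31 (4.84%) hold it, and 25 of those 31 were detected. The 4 were miR-3541, miR-3573-3p and miR-6328, each detected on all arrays, and miR-3547. Their probes therefore hold GGGG, as in the probe of 13 bases for miR-3573-3p and that of 11 bases for miR-6328.
miR-3573-3p probe: atgggagggggca
miR-6328 probe: gcgggggctca
Length did not separate the sets, with a median of 22 bases in both. Whether base composition plays a part in the detection was not tested.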

How the data were processed

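Exosomal RNA from rat serum was hybridised by the authors to Agilent Rat miRNA arrays (release 19.0), in 1 colour with an array for each sample. The deposited intensity values are linear output of Agilent Feature Extraction 10.10.1.1 for spots and, summed, for miRNAs. The software had subtracted background, and no scaling between arrays had been applied. All arrays came from 1 slide and 1 scan. Precision is limited by the number of arrays.

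Totals were scaled to the 75th percentile of the 144 miRNAs that all 8 arrays detected, then floored at the lowest scaled value of any detected miRNA (log2 -8.16) and logged. The 192 miRNAs that every array of one or both groups detected were compared with limma 3.58.1 (R 4.3.3), 4 arrays against 4, without blocks (two-sided, Benjamini-Hochberg at 0.05), beside exact permutation tests. Every fold change is on this scale. Only the limma step was tested on simulated data, drawn with independent noise for the miRNAs detected on all arrays. Scaling, floor and filter were not simulated. Tables and figures used Python 3.11.15, pandas 2.3.3, scipy 1.17.1 and matplotlib 3.10.9. Sequences, positions and gene spans are from RefSeq tables of GRCr8.

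The miRNAs, lists and tests were chosen with earlier results of these data known. Named are all high-numbered miRNAs detected on at least 1 array, the nearest non-members miR-3584-5p and miR-3473, and undetected ones whose arm, seed or opposite strand is described. Opposite-strand pairs and the CCCC run were added after seeing the data. Alternatives covered signal, background correction, scaling, floor, filter, variance model, test, detection rule and leaving out each array. RT-PCR and tissue data were not analysed here.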

Additional observations from a re-analysis of the deposited data

Results flagged for a closer look

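One value among the named miRNAs stood apart within its group. In reflux esophagitis, miR-3564 had a scaled log2 signal of -3.22 on replicate 10, and the nearest of the other 3 arrays was at -4.58, a gap of 0.854 of the group's range. Groups of 4 arrays were compared 27 times, for which chance alone gives 1.35 such values. Before scaling, replicate 10 (47.4) lay beside replicate 5 (44.1), and replicate 9 (9.23) was the array that stood apart. The total on replicate 9 held only 1 probe.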

How the results depend on the processing

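No high-numbered miRNA was called under any of the 27 alternatives. The lowest adjusted p (limma) was 0.0953 with array quality weights, where 9 had an unadjusted p under 0.05, and 0.0987 without reflux esophagitis replicate 10, where 5 did. The count of unadjusted p under 0.05 over all 192 tested is not given for these settings, so 9 and 5 have no share beside them. Of all 192, 3 were called with weights and 1 without replicate 10. The median of all 192 moved from -0.29 to -0.37 and -0.45. Of 398 single values 351 kept their direction and side of the threshold and 47 reversed; the cause was not tested except where a scaling moved all miRNAs. The 75th percentile over all rat miRNAs moved the median of all tested miRNAs to 1.39. With it the log2 fold changes were 1.21 (miR-3541), 1.65 (miR-3544), 0.080 (miR-3549), 0.23 (miR-3559-5p), 1.43 (miR-3564), 1.46 (miR-3573-3p), 0.96 (miR-3588), 1.41 (miR-3593-3p), 1.56 (miR-6216) and 1.62 (miR-6328), and the same with the methods' floor for all of these but miR-3559-5p. Median scaling gave 0.17 (miR-3544), 0.076 (miR-6216) and 0.14 (miR-6328), quantile normalization 0.23 (miR-3544) and 0.0010 (miR-6328), and the percentile over non-members 0.0012 (miR-3544). Normexp gave 0.013 (miR-3544), 0.035 (miR-3549), 0.11 (miR-3559-5p) and 0.025 (miR-3564), the mean spot signal 0.0084 (miR-3549), and array quality weights 0.60 (miR-3559-5p). The weights also moved the 8 miRNAs detected on all arrays further below 0, to a median of -0.85 against -0.25 without weights, from -0.47 for miR-3564 to -1.94 for miR-3588, with -1.19 for miR-3593-3p. Over all 144 miRNAs detected on all arrays the median moved as well, from -0.19 to -0.36.

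Leaving out 1 array gave -0.97 to -0.16 for miR-3541, -0.32 to 0.27 for miR-3544, -2.32 to -0.68 for miR-3546, -1.45 to 0.012 for miR-3549, -2.11 to -0.61 for miR-3557-3p, -1.45 to -0.05 for miR-3559-5p, -2.49 to -0.62 for miR-3562, -0.63 to -0.02 for miR-3564, -0.62 to 0.18 for miR-3573-3p, -1.46 to -0.13 for miR-3588, -0.65 to 0.16 for miR-3593-3p, -0.58 to 0.093 for miR-6216, -2.02 to -0.69 for miR-6317, -2.82 to -1.04 for miR-6322 and -0.42 to 0.29 for miR-6328. Undetected arrays are at the floor in these values.

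Leaving out 1 array gave 8 to 13 high-numbered miRNAs detected on all arrays, with 13 without reflux esophagitis replicate 9 and 8 otherwise. With more than 10 spots well above background, 13 were detected on at least 1 array and 4 on all. With miR-3473, miR-3584-5p and miR-1224 left out of the sum, the 89 held 2.19% in reflux esophagitis and 2.16% in controls. No paired analysis was possible because the groups share no replicate numbers. Most of these signals lie close above background, which limits their precision.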
